A study of Homo sapiens and Homo sapiens
Mus with 12 samples.

Results

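The classical cadherins and the catenins that bind them were read as a family of 10 genes around CDH11, the gene targeted by the hairpins. The members were the target CDH11, the other classical cadherins CDH1, CDH2, CDH3 and CDH4, the catenins CTNNA1, CTNNB1, CTNND1 and JUP, and the alpha-catenin relative CTNNAL1. They were found by symbol, and all 10 were present among the 21466 genes of the cultured-cell table and among the 26813 human genes of the tumor table. UM-UC-3, an advanced human bladder cancer cell line, had been transduced with lentivirus carrying GFP and either a nonsilencing hairpin (shCtrl) or 1 of the 2 hairpins against CDH11 (sh#1 and sh#2), and GFP-positive cells had been sorted. RNA was sequenced from 3 libraries per line after a day of culture and from 5 subcutaneous xenograft tumors per line. The tumors had been started in Matrigel in 5-week-old male BALB/cAJcl-nu/nu (nude) mice, which lack T cells but keep other host cells, and were collected 4 weeks later. CDH11 KD stands for sh#1 and sh#2 together. The labels do not say that cultured libraries came from separate cultures, so p-values there measure the spread between libraries, which may be technical.

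Classical cadherins are transmembrane proteins that hold neighbouring cells together in adherens junctions by binding a cadherin of the same kind on the next cell. Inside the cell, p120-catenin (CTNND1) holds the cadherin at the membrane, beta-catenin (CTNNB1) or plakoglobin (JUP) binds its tail, and alpha-catenin (CTNNA1) links the complex to actin. Beta-catenin that is not held at junctions can enter the nucleus and act with TCF and LEF factors in Wnt signaling. Epithelial cells typically carry E-cadherin (CDH1) and P-cadherin (CDH3), whereas N-cadherin (CDH2) and CDH11 are typical of mesenchymal cells, and CDH4 encodes R-cadherin.

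Totals were 2273182 to 2777019 counts in the cultured libraries and 414849 to 1248977 human counts in the tumors, with mouse counts making up at least 10.4% of human and mouse counts and at most 18.8% outside sh#1 tumor 1. That tumor had the lowest human total and a mouse share of 30.02%. Of the epithelial markers, EPCAM was at 0 in all 9 cultured libraries, KRT19 at 0 to 3 counts and KRT7 at 5 to 14. KRT8 had 253 to 345 and KRT18 287 to 539 counts. Of the mesenchymal markers, VIM had 5189 to 8893 and FN1 6 to 32 counts. In the tumors the 3 hairpin groups were sequenced as 3 separate library mixes, so mix and hairpin cannot be told apart there. Bulk RNA also does not distinguish fewer cells of a type from less RNA per cell.

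In cultured cells, CDH11 was close to the limit of detection. Raw counts were 2, 4 and 4 for shCtrl, 0, 0 and 1 for sh#1, and 1, 2 and 0 for sh#2. The sh#1 libraries were all below shCtrl, and 1 sh#2 library tied with the lowest shCtrl library in raw counts. Counts per 1e6 total counts (CPM) averaged 1.41 ± 0.490 (SD, n = 3) in shCtrl and 0.273 ± 0.345 (n = 6) in CDH11 KD, a difference of -1.14 CPM (two-sided exact permutation test, p = 0.0476, where the smallest p this design allows is 0.0238). Without any 1 library other than sh#2 library 2 the p ran from 0.0714 to 0.143, and 0.0714 was the smallest p possible without a shCtrl library. CDH11 did not pass the filter on low counts. Fitted without the filter its log2 fold change was -1.99 ± 0.848 (SE) in CDH11 KD, with an adjusted p of 0.134.

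CDH11 lies on the minus strand of hg38 at chr16:64943753-65126112 (ENSG00000140937). The study reported significantly lower CDH11 mRNA, by PCR, and CDH11 protein in its knockdown cells. The PCR primers with which the study measured CDH11 mRNA are printed here because they fix which part of the transcript its own check read, which the gene-level counts do not. The primers, 5′ to 3′ in lower case, were as follows.
CDH11 forward primer: agagagcccagtacacgttga
CDH11 reverse primer: ttggcatgataggtctcgtgc
Both matched only CDH11 among the GENCODE v44 transcripts, and in the canonical transcript of 6722 bases they bounded bases 840 to 981, a product of 142 bases within the coding part of exon 4 (chr16:64998585-64998726).

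The epithelial cadherins CDH1 and CDH3 and the catenin JUP were at or near 0 in culture. E-cadherin (CDH1) had 0 counts in all 9 libraries, and a count of 0 allows up to 3 counts per library, or 1.08 to 1.32 CPM at these depths. This and the other limits cover counting error only. P-cadherin (CDH3) had 0, 1 and 0 counts in shCtrl, 0, 1 and 2 in sh#1 and 1, 3 and 0 in sh#2. Plakoglobin (JUP), the beta-catenin relative that also serves desmosomes, had 0, 0 and 3, then 0, 1 and 2, then 1, 0 and 0. These genes did not pass the filter, and their counts overlapped between all groups. The 6 members that passed were CDH2, CDH4, CTNNA1, CTNNB1, CTNND1 and CTNNAL1.

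N-cadherin (CDH2, ENSG00000170558) was the cadherin with a call in culture, and it was lower under sh#1. Its raw counts were 106, 99 and 99 in shCtrl, 74, 57 and 72 in sh#1 and 78, 68 and 67 in sh#2. Every knockdown library was below every shCtrl library. That held for 1 of the 6 members tested, CDH2, and for 10.6% of all 9859 genes tested. No share of all genes is given here for libraries wholly above shCtrl or for separations of 1 hairpin. Such separations below are descriptions of the genes named.

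Normalized CPM, scaled to TMM-adjusted library sizes, averaged 40.0 ± 2.06 (SD, n = 3) in shCtrl, 26.8 ± 3.06 in sh#1 and 33.8 ± 2.21 in sh#2. The TMM factors in culture separated by group, at 1.07 to 1.08 in shCtrl, 1.02 to 1.04 in sh#1 and 0.897 to 0.905 in sh#2. A lower factor raises normalized values. For every gene the sh#2 level relative to the other groups is therefore higher here than per total count. CDH2 fell by 0.58 ± 0.145 (SE) on the log2 scale in sh#1 against shCtrl (edgeR, quasi-likelihood test, q = 0.00207 after Benjamini-Hochberg correction over all genes tested). The sh#2 difference was -0.24 (95% interval -0.53 to 0.05, q = 0.19), and the difference between the hairpins was -0.34 (-0.65 to -0.03, q = 0.103). For CDH11 KD as a whole CDH2 differed by -0.41 (-0.70 to -0.11, q = 0.0556), just outside the threshold of q under 0.05. It passed that threshold with 3 groups in the fit (q = 0.00708), with upper quartile normalization (q = 0.0373), with at least 10 counts in every library (q = 0.0422) and without sh#2 library 1 (q = 0.0344).

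R-cadherin (CDH4) was measured at lower counts in the knockdown libraries without reaching a call. It had 59, 71 and 66 counts in shCtrl, 45, 54 and 47 in sh#1 and 44, 47 and 35 in sh#2. After normalization 5 of 6 knockdown libraries were below the lowest shCtrl library. The log2 differences were -0.42 (95% interval -0.77 to -0.06, q = 0.0859) for sh#1, -0.36 (-0.73 to 0.00, q = 0.112) for sh#2 and -0.39 (-0.73 to -0.05, q = 0.104) for CDH11 KD. The hairpins differed from each other by -0.05 (-0.44 to 0.34). A call appeared for CDH11 KD with 3 groups in the fit (q = 0.0438) and for sh#1 without its library 2 (log2 -0.56, q = 0.0447).

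Among the catenins, alpha-catenin (CTNNA1, ENSG00000044115, chr5:138610967-138935034) was higher under sh#2. Its counts were 453, 448 and 460 in shCtrl, 424, 418 and 575 in sh#1 and 506, 512 and 522 in sh#2. Normalized CPM ran from 175 to 184 in shCtrl, 174 to 203 in sh#1 and 236 to 254 in sh#2, so sh#2 did not overlap the other groups. CTNNA1 rose by 0.45 ± 0.0739 on the log2 scale in sh#2 (edgeR quasi-likelihood test, q = 1.45e-06). The lower TMM factors of sh#2 enlarge this rise, while its raw counts were also all above those of shCtrl. In sh#1 the difference was 0.06 (95% interval -0.09 to 0.21, q = 0.635), and the hairpins themselves differed by -0.39 (-0.54 to -0.25, q = 3.62e-05). The difference for CDH11 KD was 0.27 (0.02 to 0.51, q = 0.129), and passed with 3 groups in the fit (q = 0.00141) or without sh#1 library 1 (log2 0.32, q = 0.0484).

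Beta-catenin (CTNNB1, ENSG00000168036, chr3:41194741-41260096) was placed on opposite sides of shCtrl by the hairpins. Counts were 381, 372 and 378 in shCtrl, 406, 366 and 445 in sh#1 and 323, 269 and 277 in sh#2. Normalized CPM averaged 149 ± 4.35, 161 ± 5.06 and 138 ± 11.4 (SD, n = 3 each). All 3 sh#1 libraries were above shCtrl, and 2 of the sh#2 libraries were below it. Neither hairpin differed from shCtrl beyond the threshold (log2 0.11, 95% interval -0.05 to 0.27, q = 0.345 for sh#1 and log2 -0.11, -0.27 to 0.06, q = 0.321 for sh#2). CTNNB1 was higher in sh#1 than in sh#2 by 0.22 ± 0.082 on the log2 scale (q = 0.0434). This call was lost with DESeq2 (adjusted p = 0.126) and without sh#1 library 1 (log2 0.19, q = 0.136), 2 (log2 0.22, q = 0.084) or 3 (log2 0.24, q = 0.0526) or sh#2 library 2 (log2 0.17, q = 0.21) or 3 (log2 0.20, q = 0.121).

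The remaining catenins gave narrow intervals that included 0. CTNND1 (p120-catenin) had 256 to 267 counts in shCtrl, 214 to 278 in sh#1 and 181 to 213 in sh#2, with a log2 difference of -0.13 for CDH11 KD (95% interval -0.33 to 0.07, q = 0.355). CTNNAL1 (alpha-catulin) had 381 to 513, 388 to 498 and 342 to 375 counts, and a difference of -0.06 (-0.25 to 0.13, q = 0.707). For both genes the normalized ranges of shCtrl and CDH11 KD overlapped, and no hairpin passed the threshold. After normalization 5 of 6 knockdown libraries were below the lowest shCtrl library for CTNND1, and 0 of 6 for CTNNAL1.

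In all, 0 of 6 members were called for CDH11 KD in culture, where 17.4% of all genes were. With sh#1 the count was 1 of 6 (CDH2) against 22.4% of all genes, with sh#2 1 of 6 (CTNNA1) against 38.3%, and between the hairpins 2 of 6 (CTNNA1 and CTNNB1) against 24.7%. The members' share was thus below that of all genes in 3 comparisons and above it between the hairpins. At an unadjusted p under 0.05 the CDH11 KD count was 3 (CDH2, CDH4 and CTNNA1), and DESeq2 called 0. The median log2 fold change of the 6 members was -0.10 for CDH11 KD and that of all genes 0.00.

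**Figure D1:**
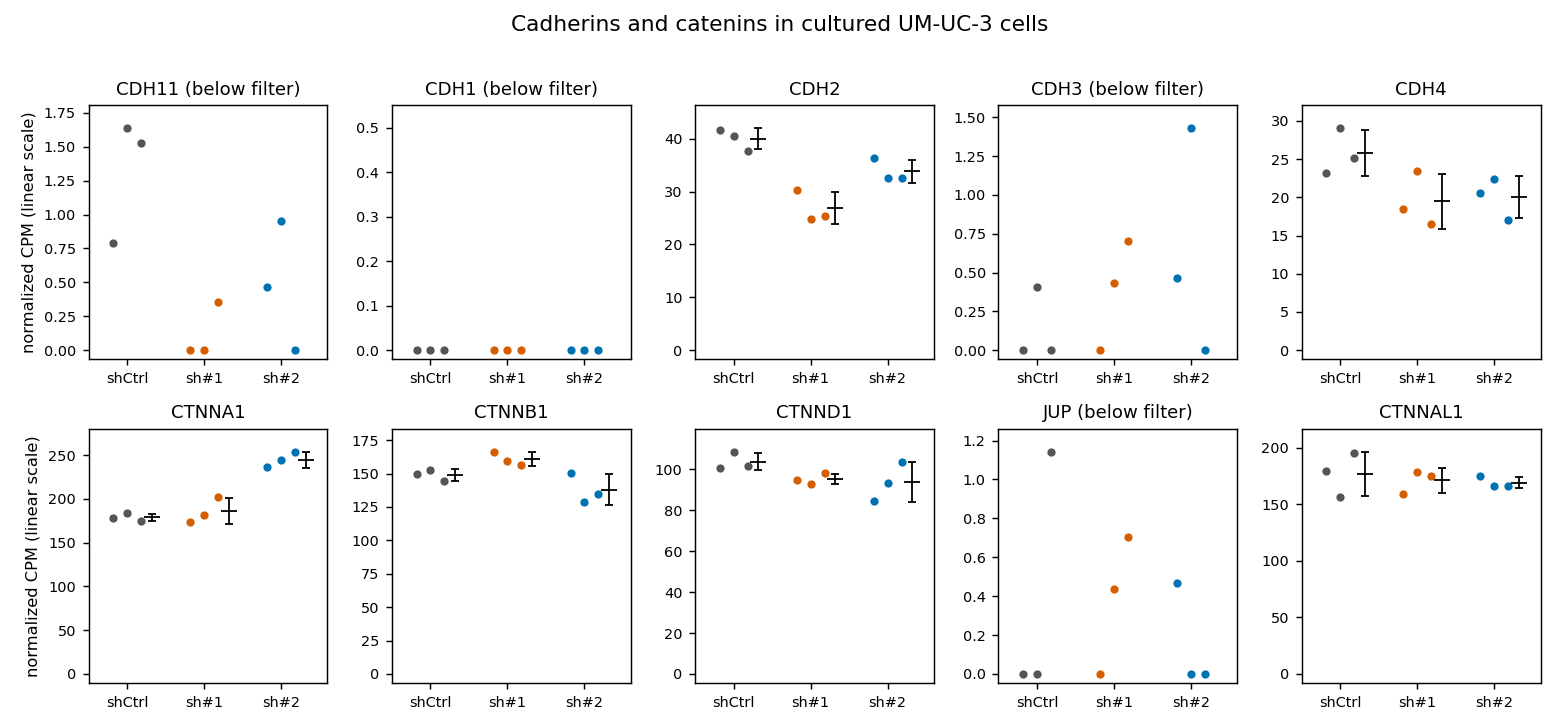
Normalized CPM (linear axis from 0) of the 10 members in the 9 cultured libraries, with 1 point per library and, beside each group, the mean and SD for members that passed the low-count filter. CDH2 lies below shCtrl in all 6 knockdown libraries, while CTNNA1 is higher in sh#2 (236 to 254) than in either other group.

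CTNNA1 was the member whose promoter windows held a TCF/LEF motif, shown here because beta-catenin acts through these factors. A link between the motif and the CTNNA1 level was not tested. Windows from 250 bases before to 50 after an annotated start (RefSeq, GRCh38.p14) were searched on both strands for the TCF/LEF letters CTTTGA, which appear as TCAAAG when they lie on the opposite strand. The same windows were searched for the E-box letters CACCTG, the site read by the cadherin repressors, which appear as CAGGTG on the opposite strand. Of 12 windows of 6 members, 2 held the first motif and 2 the second, against 12.9% and 20.6% of all 35116 windows. No window was listed for CDH11, CDH1, CDH3 and CTNND1. The motif is in capitals and each stretch is 5′ to 3′ on the strand of its gene.
CTNNA1 TCF/LEF, chr5:138874986-138875015: acatgtaggagcCTTTGAccagtttcctgt
CTNNA1 TCF/LEF, chr5:138875178-138875207: tcagctggttaaTCAAAGcttcagtctcct
CDH4 E-box, chr20:61499393-61499422: gggactggggtgCAGGTGtgcctggttcag
JUP E-box, chr17:41786013-41786042: cgactctggcccCACCTGccgagcaggtga
The CTNNA1 stretches belong to overlapping windows of starts inside the gene, and the TCAAAG stretch lies in each of these windows. The JUP stretch continues into a second E-box on the other strand. Windows of CDH2, CTNNB1 and CTNNAL1 held neither set of letters.

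In the tumors, counts assigned to human CDH11 passed the filter and were lower under sh#1. How reads were assigned to human or mouse was not given in the sources used here, so some of these counts may be host reads, or the reverse, and this was not tested. Its counts were 21, 12, 15, 32 and 5 in the shCtrl tumors, 1, 3, 9, 2 and 7 in sh#1 and 7, 14, 12, 6 and 2 in sh#2. After normalization 4 of 5 sh#1 tumors and 2 of 5 sh#2 tumors were below the lowest shCtrl tumor, so the groups overlapped. Normalized CPM averaged 16.6 ± 7.65 (SD, n = 5) in shCtrl, 4.99 ± 3.18 in sh#1 and 10.1 ± 5.72 in sh#2.

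CDH11 fell by 1.67 ± 0.399 on the log2 scale in sh#1 tumors (edgeR quasi-likelihood test, q = 0.026, threshold q under 0.1). The sh#2 difference was -0.73 (95% interval -1.45 to -0.02, q = 0.347), that between hairpins -0.94 (-1.85 to -0.02, q = 0.482) and that for CDH11 KD -1.13 (-1.81 to -0.45, q = 0.112). The sh#1 call was lost without shCtrl tumor 4 (log2 -1.38, q = 0.156). With only the 2 groups in the fit CDH11 did not pass the filter and had no value. The CDH11 KD difference passed with 3 groups in the fit (q = 0.0426), without the low-count filter (q = 0.00952), with upper quartile normalization (q = 0.097), without shCtrl tumor 5 (log2 -1.28, q = 0.0298) and without sh#2 tumor 2 (log2 -1.36, q = 0.0332).

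The host gene was counted in the same tumors, and Cdh11 is known to be expressed by stromal cells. Over the 15 tumors there were 239 mouse Cdh11 and 148 human CDH11 counts, so 61.8% of both were mouse. Mouse Cdh11 had 30, 23, 12, 27 and 9 counts in shCtrl, 1, 5, 28, 2 and 10 in sh#1 and 17, 30, 28, 10 and 7 in sh#2 tumors. Tumors low in one tended to be low in the other. As shares of human and mouse counts together, the pair had a Pearson r of 0.67 (permutation p = 0.0048, adjusted p = 0.024 over 5 genes) and a Spearman rho of 0.76 (permutation p = 0.0015, adjusted p = 0.0077) over 15 tumors. Pairings were permuted over all 15 tumors without regard to group. Differences between the groups can therefore contribute to r and rho, and these p-values do not measure covariation within a group.

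Without the tumors farthest from the median of mouse Cdh11, sh#1 tumor 3 and sh#2 tumor 2, r was 0.73. Single groups of 5 tumors were too small for a correlation of their own. For CTNNA1, CTNNB1, CTNND1 and JUP and their mouse orthologs, r ran from -0.46 to 0.21 and rho from -0.32 to 0.47, and no permutation p passed 0.05 after adjustment (0.25 to 0.42 for r and 0.18 to 0.73 for rho). All 6 mouse fibroblast and mural markers were detected, and their summed CPM of mouse counts ran from 6989 to 18119 in shCtrl, 1697 to 12631 in sh#1 and 5430 to 20289 in sh#2 tumors. Their part in the human CDH11 counts was not tested.

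The human percentage of all CDH11 counts averaged 44.2 ± 10.1% (SD, n = 5) in shCtrl, 40.6 ± 10.6% in sh#1 and 30.1 ± 5.49% in sh#2 tumors. Exact two-sided permutation tests gave p = 0.579 for sh#1, p = 0.0238 for sh#2 and p = 0.124 for CDH11 KD, and with the CPM of mouse Cdh11 in mouse counts (CDH11 KD against shCtrl, p = 0.193) as the other value the adjusted p for sh#2 was 0.0952. The percentage in sh#2 ran from 22.2 to 37.5% and that in shCtrl from 34.3 to 55.6%, with an overlap. When each tumor's mouse-to-human ratio was a covariate, the sh#1 difference of human CDH11 was -1.60 (q = 0.053), which passed the threshold.

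**Figure D2:**
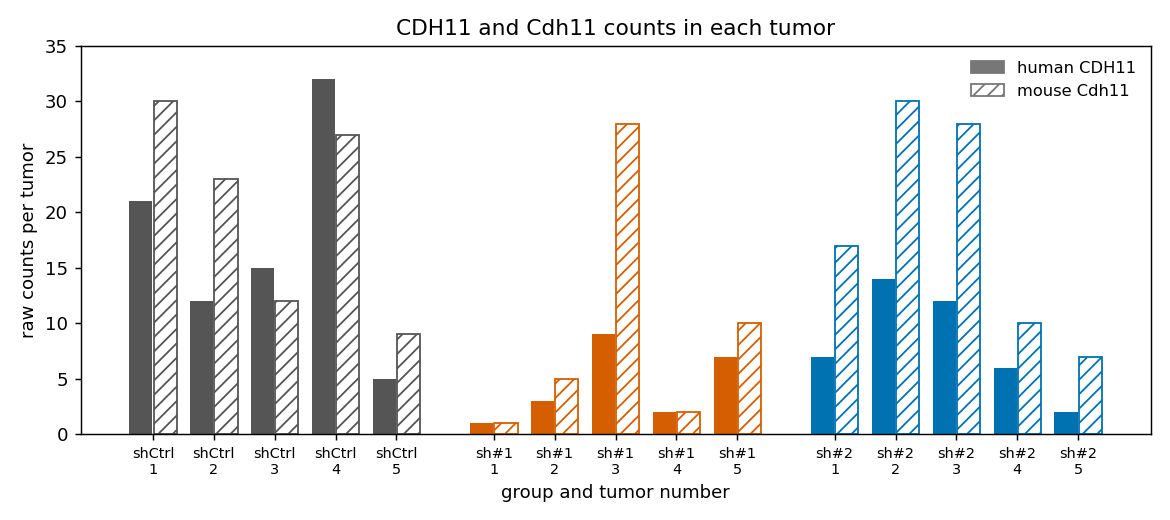
Raw counts per tumor of human CDH11 (filled bars) and mouse Cdh11 (hatched bars) in the 5 tumors of each group, on a linear axis from 0. Mouse counts are at least as high as human counts in 13 of 15 tumors, and sh#1 tumors 1 and 4 have 1 or 2 counts of each.

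The other cadherins were sparse in the tumors. CDH2 had 13, 8, 25, 12 and 0 counts in shCtrl, 2, 17, 6, 8 and 6 in sh#1 and 8, 18, 20, 2 and 9 in sh#2 tumors. These groups overlapped throughout, and the interval of the CDH11 KD difference ran from -1.22 to 1.22 (log2 0.00), which includes the size of the sh#1 difference in culture. CDH4, which did not pass the filter, had 3 to 12 counts in shCtrl, 3 to 14 in sh#1 and 1 to 11 in sh#2. E-cadherin had 1 count in a single sh#1 tumor and P-cadherin 1 count in a single sh#2 tumor.

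JUP had 12, 0, 7, 15 and 9 counts in shCtrl tumors, 3, 5, 10, 18 and 13 in sh#1 and 24, 7, 11, 2 and 2 in sh#2. The groups overlapped, and the CDH11 KD difference was 0.41 (95% interval -0.74 to 1.55, q = 0.815). Mouse Jup added 39 counts, 22.0% of both species.

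The more highly counted catenins gave the tightest tumor estimates. CTNNA1 had 192 to 433 counts in shCtrl, 150 to 340 in sh#1 and 179 to 362 in sh#2 tumors, with a CDH11 KD difference of 0.09 (95% interval -0.10 to 0.29). The sh#2 difference in tumors was 0.10 (-0.12 to 0.32, q = 0.759). CTNNB1 had 239 to 508, 122 to 401 and 231 to 475 counts and a difference of 0.01 (-0.19 to 0.21), CTNND1 24 to 42, 7 to 42 and 18 to 48 counts and 0.00 (-0.36 to 0.36), and CTNNAL1 93 to 225, 61 to 171 and 62 to 207 counts and -0.02 (-0.27 to 0.22). Mouse orthologs were 5.77% of both species for CTNNA1, 0.748% for CTNNB1, 14.1% for CTNND1 and 0.469% for CTNNAL1.

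In the tumors 0 of 7 members were called for CDH11 KD, where 1.51% of the 9184 genes tested were. The counts were 1 of 7 (CDH11) with sh#1 against 1.48% of genes, 0 with sh#2 against 2.68% and 0 between the hairpins against 1.19%. No member lay below every shCtrl tumor in all 10 knockdown tumors, which 0.316% of genes did. The median log2 fold change of the 7 members for CDH11 KD was 0.00, and that of all genes 0.01. At an unadjusted p under 0.05 the count was 1, CDH11, in each of the 4 comparisons with edgeR. DESeq2 called 1 member with sh#1 and 0 in each of the others.

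**Figure D3:**
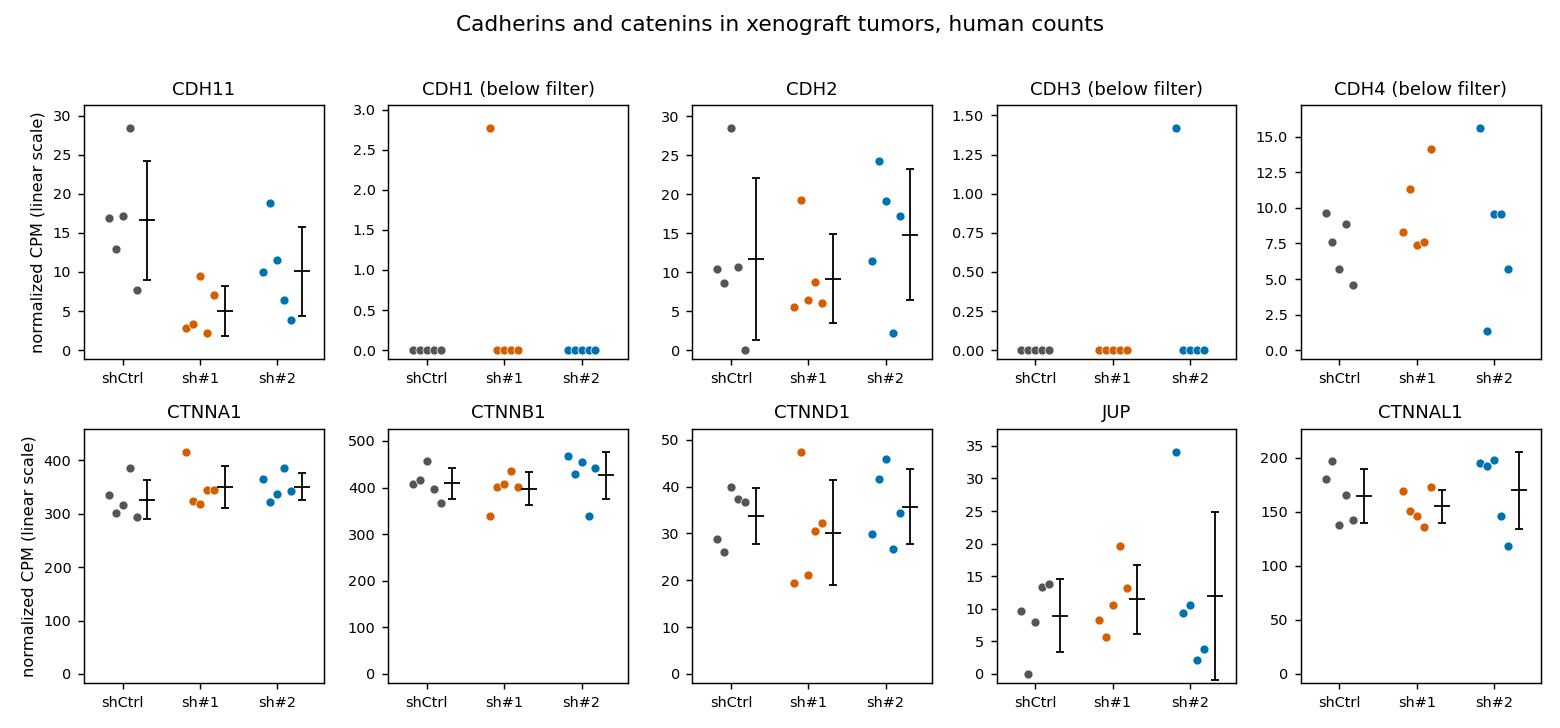
Normalized CPM (linear axis from 0) of the 10 members in the 15 tumors, human counts, with 1 point per tumor and the mean and SD of each group for members that passed the filter. CDH11 averages 16.6 in shCtrl, 4.99 in sh#1 and 10.1 in sh#2 with overlapping points, and the other members overlap between all groups.

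**Figure D4:**
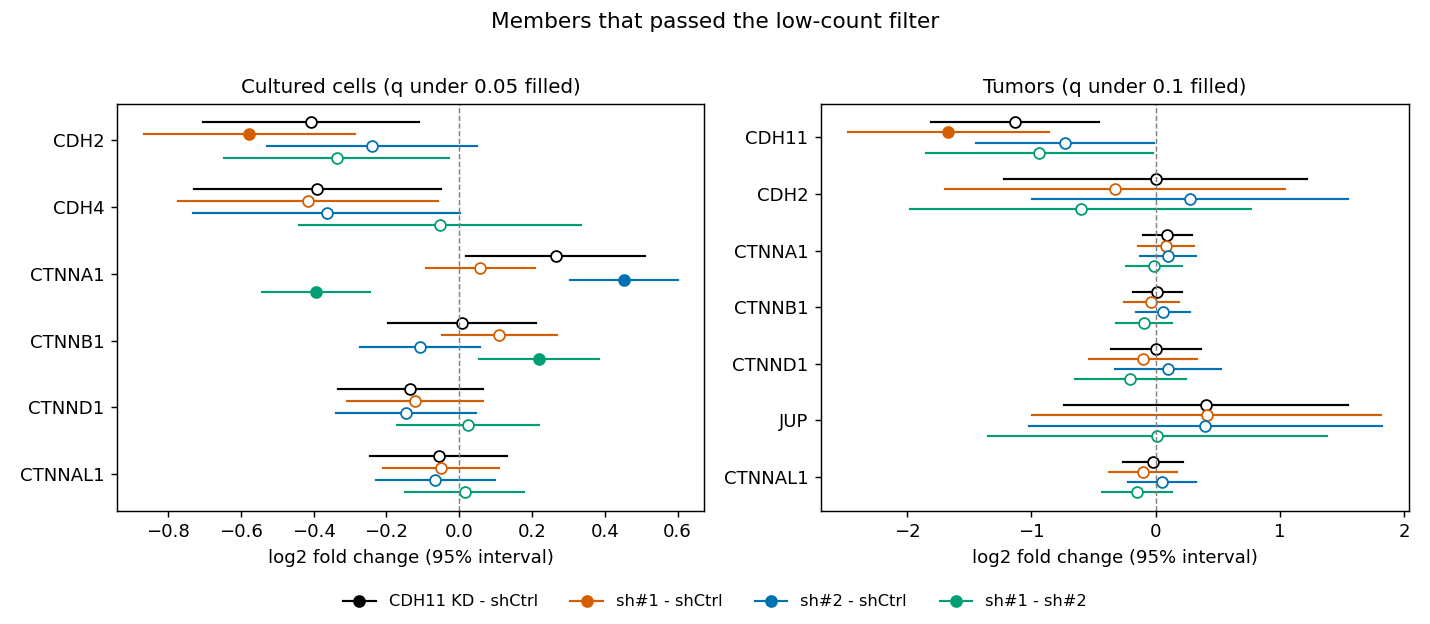
Log2 fold changes (horizontal axis) with 95% intervals for the members tested in cultured cells (left) and tumors (right), in 4 comparisons, with filled circles for calls. The filled circles are CDH2 (sh#1), CTNNA1 (sh#2 and between hairpins) and CTNNB1 (between hairpins) in culture and CDH11 (sh#1) in tumors.

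The genes around the junction were read from lists. Of 17 further cadherins 1 could be tested in culture, of 8 other catenins and armadillo relatives 2 and of 9 desmosome genes 3, and edgeR called 0 of them for CDH11 KD, with 0 at an unadjusted p under 0.05. In tumors 0, 2 and 2 of these genes could be tested. For CDH11 KD 0 were called there, and 1 had an unadjusted p under 0.05, the desmosomal plakophilin PKP3. Of the 17 protocadherins and FAT cadherins, large relatives of the classical cadherins, 7 were tested in culture and 2 fell for CDH11 KD (28.6% beside 17.4% of all genes), PCDH7 (log2 -0.73, q = 0.0333) and PCDH10 (log2 -1.03, q = 0.0424). With sh#2 the calls were PCDH7 and PCDH10, both lower, and with sh#1 the call was FAT4, which was higher (log2 0.60, q = 0.0198), while the test between the hairpins called 0 of 7 (1 at an unadjusted p under 0.05, PCDH10). PCDH7 had 26 to 35 counts in shCtrl and 11 to 22 in CDH11 KD, with no overlap after normalization, and 10.6% of all genes lay wholly below shCtrl. The list's median was -0.37. Leaving out 1 library took these calls away in most cases, with q up to 0.15 for PCDH7 (without shCtrl library 3) and up to 0.267 for PCDH10 (without shCtrl library 1). For PCDH7 the libraries were shCtrl 1, 2 and 3 and sh#2 1, 2 and 3, and for PCDH10 these and sh#1 library 2. DESeq2 called neither (adjusted p = 0.0717 and 0.0558), and PCDH7 was not called without the low-count filter (q = 0.0534).

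Among 25 tested adherens junction partners, which anchor or shape the cadherin complex, 5 fell and 0 rose for CDH11 KD in culture, a share of 20% beside 17.4% of all genes, with a median of -0.02. The polarity scaffolds DLG1 and SCRIB fell by 1.14 and 0.66 on the log2 scale (q = 0.000503 and 0.0169). The actin linker afadin (AFDN) fell by 0.46 (q = 0.0174), the Rap1 activator RAPGEF1 by 0.75 (q = 0.0314) and the actin regulator VASP by 0.35 (q = 0.0147). All 6 knockdown libraries were below shCtrl for each of these 5 genes, which were named because they were called. The same held for 10.6% of all genes. With sh#1 alone 1 partner was higher and 7 were lower (32% beside 22.4%), and with sh#2 alone 4 were higher and 7 lower (44% beside 38.3%). The actin cross-linker ACTN4 was called in opposite directions, lower in sh#1 (log2 -0.26, q = 0.0142) and higher in sh#2 (log2 0.24, q = 0.0145). The hairpins differed for RAPGEF1 (0.85, q = 2.62e-06) and SCRIB (0.67, q = 0.00138), both lower in sh#2. The DLG1 call held in 15 of 15 alternatives, whereas without shCtrl library 1 the adjusted p was 0.0683 for RAPGEF1, 0.0943 for SCRIB, 0.123 for AFDN and 0.0861 for VASP. Calls were also lost without shCtrl library 2 for RAPGEF1 (q = 0.115) and VASP (q = 0.0775), without shCtrl library 3 for RAPGEF1 (q = 0.108), SCRIB (q = 0.0667) and AFDN (q = 0.0509), and for RAPGEF1 without sh#2 library 3 (q = 0.0526) or without the low-count filter (q = 0.065). In tumors edgeR called 0 of 24 tested partners in each comparison. At an unadjusted p under 0.05 the count was 0 for CDH11 KD and 0 with sh#1. It was 4 with sh#2 (ADAM10, AFDN, DLG1 and IQGAP1) and 4 between the hairpins (ADAM10, DLG1, ENAH and IQGAP1).

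Of the 13 genes listed as nuclear partners of beta-catenin 2 rose (TCF7L1 and CTNNBL1) and 6 fell for CDH11 KD in culture. That was 61.5% beside 17.4% of all genes, and the median was -0.41. In tumors 1 of the 13 was called for CDH11 KD, BCL9L, which was lower. That was 7.69% beside 1.51% of all genes, with a median of 0.04. In culture with sh#1 alone 46.2% were called beside 22.4% of all genes, and with sh#2 alone 69.2% beside 38.3%. These shares include CTNNBL1, a catenin-like gene whose tie to beta-catenin was not tested here. PYGO2 and PYGO1, which tether beta-catenin through BCL9 proteins to transcription, fell by 1.37 and 1.15 (q = 0.00115 and 0.0124). BCL9L fell by 1.30 (q = 0.0271) and the acetyltransferase CREBBP by 0.54 (q = 0.0173). The TCF factor TCF7L1 rose by 0.47 (q = 0.0486), whereas the TCF factor TCF7L2 was called lower for CDH11 KD and with sh#2. BCL9L had 127 to 169 counts in shCtrl, 70 to 103 in sh#1 and 22 to 35 in sh#2, and PYGO2 had 53 to 64, 22 to 34 and 12 to 14.

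For both genes the 3 groups did not overlap in raw counts, and the hairpins differed by 1.26 for BCL9L (q = 1.71e-06) and 0.86 for PYGO2 (q = 0.0233), with sh#2 lower. TCF7L1 differed between hairpins by -0.50 (q = 0.00117). The PYGO2 call held in 15 of 15 alternatives. Without shCtrl library 1 the adjusted p was 0.0504 for BCL9L, 0.0837 for PYGO1, 0.112 for CREBBP and 0.0819 for TCF7L1. Other libraries whose absence ended a call were shCtrl 2 (q = 0.0946), shCtrl 3 (q = 0.0918) and sh#2 library 2 (q = 0.0533) for BCL9L, shCtrl 3 (q = 0.0522) for PYGO1, and for TCF7L1 shCtrl 2 (q = 0.198) and 3 (q = 0.135) and sh#2 1 (q = 0.083), 2 (q = 0.0885) and 3 (q = 0.0875). BCL9L was not called without the low-count filter (q = 0.0712), nor TCF7L1 with DESeq2 (adjusted p = 0.0563), upper quartile normalization (q = 0.0596) or at least 10 counts in every library (q = 0.0529).

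Beta-catenin's turnover genes gave 1 rise and 1 fall among 12 tested for CDH11 KD in culture, 16.7% beside 17.4% of all genes, a share near the background. CSNK1A1, the priming kinase of the destruction complex, rose by 0.43 (q = 0.0016), and the deubiquitinase USP7 fell by 0.61 (q = 0.00143). Every knockdown library was on 1 side of shCtrl for both genes, and both calls held in 15 of 15 alternatives. Of all genes tested 10.6% lay wholly below shCtrl, as USP7 did. USP7 was lower in sh#2 than in sh#1, by 0.34 (q = 0.0113). The median of this list was -0.16.

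Of 12 listed target genes of beta-catenin 4 could be tested in culture, and 2 rose for CDH11 KD, 50% beside 17.4% of all genes. MYC had 131 to 174 counts in shCtrl, 267 to 333 in sh#1 and 227 to 247 in sh#2 and rose by 1.02 (q = 8.63e-06), in 15 of 15 alternatives. NKD2, a Wnt antagonist, had 9 to 15 counts in shCtrl and 20 to 30 in CDH11 KD and rose by 1.17 (q = 0.00834; 1.04 and q = 0.0521 without shCtrl library 2). Neither gene overlapped with shCtrl in any knockdown library, a separation for which no share of all genes is given here. The list's median was 0.59. The other 2 tested genes differed between hairpins. CCND1 was higher in sh#1 (log2 0.38) and not called in sh#2 (log2 -0.12, q = 0.227). ZNRF3, a Wnt receptor ubiquitin ligase, was lower in sh#2 (log2 -1.38, q = 0.0013) and not called in sh#1 (log2 -0.29, q = 0.529). Sh#1 exceeded sh#2 by 0.49 for CCND1 and by 1.09 for ZNRF3 (q = 0.0216).

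Among the repressors and inducers of cadherins, 5 of 11 were tested in culture and 1 rose for CDH11 KD, 20% beside 17.4% of all genes. SNAI2, the E-box-binding repressor Slug, had 2 to 5 counts in shCtrl, 4 to 9 in sh#1 and 10 to 25 in sh#2. It rose by 2.11 for CDH11 KD (q = 0.0338), and sh#1 was lower than sh#2 by 1.63 (95% interval -2.44 to -0.82, q = 0.00162). The sh#1 difference from shCtrl alone was 1.12 (-0.03 to 2.27, q = 0.165). Without shCtrl library 1, 2 or 3 the adjusted p was 0.139, 0.131 and 0.065. The median of this list was 0.15. With sh#1 alone 0 of 5 were called, beside 22.4% of all genes. With sh#2 alone 2 of 5 were called, SNAI2 and ZEB2, both higher (40% beside 38.3%). Both were also called between the hairpins, lower in sh#1 than in sh#2 (40% beside 24.7%).

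**Figure D5:**
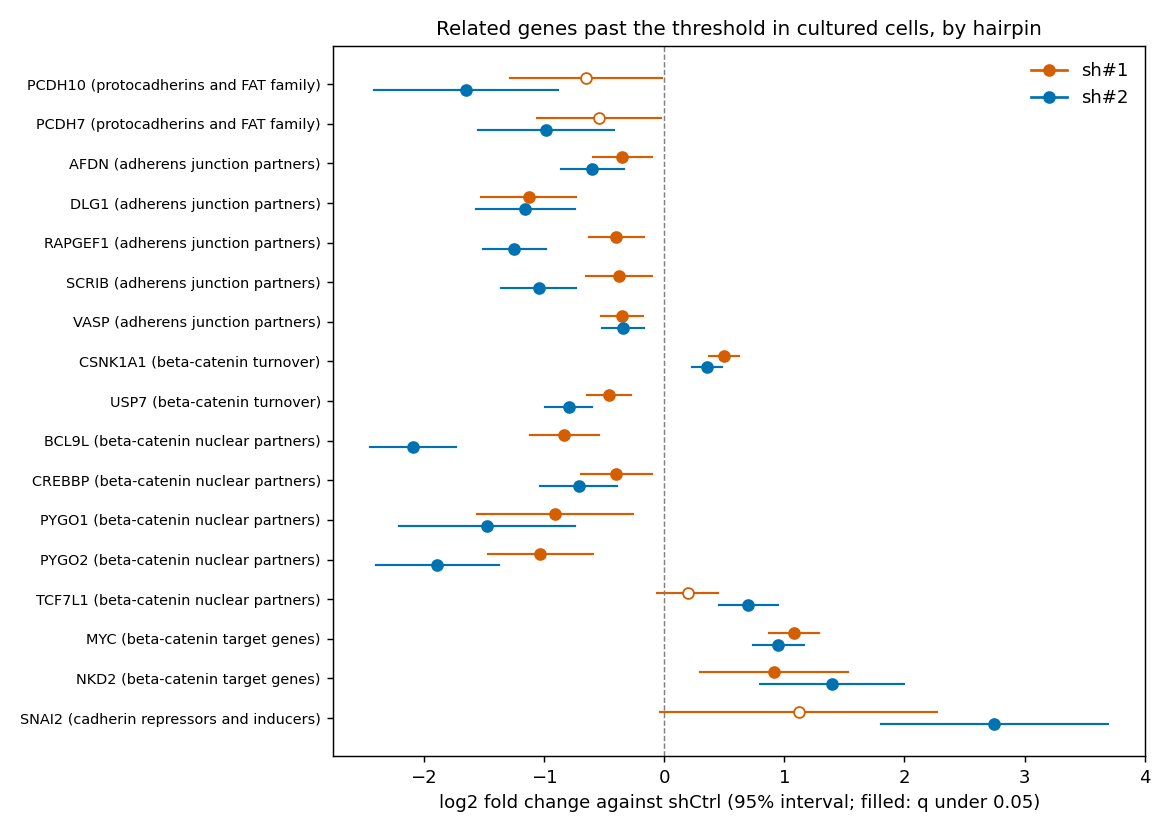
Log2 fold changes against shCtrl (horizontal axis) with 95% intervals in cultured cells for the related genes called for CDH11 KD, separately for sh#1 and sh#2, with filled circles for q under 0.05. BCL9L, PYGO2, RAPGEF1 and SCRIB lie further below 0 in sh#2 than in sh#1, and MYC and DLG1 lie close together.

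In tumors 3 of the 65 list genes tested were called for CDH11 KD (4.62% beside 1.51% of all genes). The protocadherin relative FAT1 rose by 0.64 (q = 0.0903), with 14 to 33 counts in shCtrl and 13 to 51 in CDH11 KD tumors. BCL9L fell by 0.69 (q = 0.0806), from a normalized CPM of 41.8 ± 15.3 (SD, n = 5) to 24.8 ± 6.20 (n = 10), and 9 of 10 knockdown tumors were below the lowest shCtrl tumor. The cell cycle gene CCND1 fell by 0.45 (q = 0.0631), from 902 ± 143 to 657 ± 124 CPM, with 8 of 10 tumors below shCtrl, whereas in culture it was higher in sh#1 and not called for CDH11 KD (log2 0.16, q = 0.481). MYC (log2 0.16, 95% interval -0.19 to 0.51) and NKD2 (0.10, -0.40 to 0.61) did not pass the threshold there. With the mouse-to-human ratio in the fit the adjusted p was 0.148 for FAT1, 0.194 for BCL9L and 0.191 for CCND1. Without 1 tumor it reached 0.329 for FAT1 (shCtrl 1), 0.163 for BCL9L (shCtrl 5) and 0.221 for CCND1 (shCtrl 2). The same calls were lost without shCtrl 3 or 4, sh#1 3, 4 or 5 or sh#2 1, 2, 3 or 5 for FAT1, shCtrl 1 or 2, sh#1 2 or sh#2 1, 3 or 5 for BCL9L, and shCtrl 1 or 4 for CCND1.

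PCDH7 and PCDH9 were lower in sh#2 tumors, 2 of 6 protocadherins and FAT cadherins tested (33.3% beside 2.68% of all genes). PCDH7 had 81 to 203 counts in shCtrl, 18 to 142 in sh#1 and 10 to 50 in sh#2 tumors, and all sh#2 tumors were below shCtrl. It fell by 1.96 in sh#2 (q = 0.0303), while the difference was -0.83 in sh#1 (q = 0.392), -1.28 for CDH11 KD (q = 0.158) and 1.13 between hairpins (q = 0.364). PCDH9 fell by 0.76 in sh#2 (q = 0.0277), and its CDH11 KD difference was -0.52 (q = 0.142). These tumor results of PCDH7 and PCDH9 were chosen after their values were seen. So were those of FAT4, ACTN4, ZNRF3 and ZEB2 and of CCND1 in culture. All of these were run under no alternative.

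The genes whose level followed CDH2 most closely over the 9 cultured libraries, among 8109 genes, were SOX4 (Pearson r = 0.98 of log2 CPM), XXYLT1 (0.98) and MARF1 (0.97). Over the 15 tumors the genes closest to CDH11, among 6445 genes, were PRPF4 (0.83), ITGB3BP (0.82) and SLC1A5 (0.82). These libraries share their hairpins and their depth, and the values are descriptions of the libraries.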

How the data were processed

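Single-end RNA-seq (75 bases, per the labels) of 9 cultured libraries and 15 tumors was analysed. The authors deposited raw counts per gene, without normalization. Per the labels and the study's methods, reads were mapped to hg38 after trimming, with Trim Galore for the tumors. The counting tool, the annotation, molecular identifiers and the assignment of tumor reads to human or mouse were not given in the sources used here. Of the cultured genes 13 had no values and were left out.

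The counts were fitted in edgeR 4.0.16 (R 4.3.3) after filterByExpr and TMM scaling, with the robust quasi-likelihood test. CDH11 KD was compared with shCtrl in a fit of 2 groups, and each hairpin and their difference in a fit of 3. Benjamini-Hochberg q values cover all genes tested, with thresholds of 0.05 (cultured) and 0.1 (tumors), the study's q cutoffs. For cultured cells the study also required a minimum fold change, which was not applied here. Intervals are 95%. No pair of replicates was as alike as sampling noise alone would leave it (chi-square over degrees of freedom 1.29 to 2.26 in culture and 1.82 to 6.26 in tumors), so each was kept. Members and lists were chosen with earlier results of these data known. The text names all members, list genes called for CDH11 KD (up to 5 per list and system by fold change) and the 3 genes most correlated with the member of largest fold change (genes averaging 20 counts or more). Human and mouse CDH11 shares and correlations were chosen after their counts were seen (100000 resamples for correlations). The alternatives used DESeq2 1.42.0, upper quartile scaling, no filter, at least 10 counts in every library, other groups in the fit, 1 library fewer, a block for the replicate number and, for tumors, the mouse to human ratio as a covariate. Simulated counts with 200 changed genes were used to test the code.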

Additional observations from a re-analysis of the deposited data

Results flagged for a closer look

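Within groups of 5 tumors, 4 values stood apart from the rest of their group by Dixon's test, among 24 groups of values examined, of which chance flags about 1 in 20. CDH2 was at 19.2 normalized CPM in sh#1 tumor 2, CTNNA1 at 416 in sh#1 tumor 1 and JUP at 34.1 in sh#2 tumor 1. Tumor 1 of sh#1, which had the CTNNA1 value, also stood apart with its 414849 human counts, the lowest total. The effects of the hairpins in cultured cells differed for CTNNA1, by -0.39 on the log2 scale (sh#1 minus sh#2), and for CTNNB1, by 0.22 (edgeR quasi-likelihood test of the difference).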

How the results depend on the processing

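Few counts set the limits for CDH11 in culture and for CDH2, CDH4 and JUP in tumors. The number of members called for CDH11 KD in culture, 0, became 1 with upper quartile normalization, 1 with at least 10 counts in every library and 3 with 3 groups in the fit, and ran from 0 to 1 when single libraries were left out. In tumors it became 1 with upper quartile normalization, without the filter and with 3 groups, and ran from 0 to 1. The tumor sh#1 count of 1 became 0 with at least 10 counts in every library, which removes CDH11, and 0 with only 2 groups in the fit, and ran from 0 to 1. The cultured sh#1 count ran from 1 to 2, and that between hairpins from 1 to 2, with 1 under DESeq2. The cause of changed calls was otherwise not tested. Over all genes, CDH11 KD called 1719 in culture (3291 with 3 groups in the fit, 882 to 1873 without single libraries) and 139 in tumors (276 without the filter, 227 with 3 groups, 63 with the mouse ratio, 48 to 399 without single tumors). DESeq2 called 1346 genes in place of 2209 for sh#1 and 1543 in place of 2431 between hairpins in culture. In tumors sh#1 called 136 (243 without the filter, 89 with at least 10 counts, 69 to 287 without single tumors), sh#2 246 (126 to 552) and the hairpins' difference 109 (173 without the filter, 63 with at least 10 counts, 180 with 2 groups, 44 to 144). CDH11 in culture ran from -1.42 to -0.97 CPM without single libraries, with p from 0.0357 to 0.143, and no 2 shCtrl libraries can give a p under 0.0714. CDH11 was -1.99 (log2) in edgeR without the filter, no call.

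The replicate number as a block changed no member's call. Among list genes it ended the CDH11 KD calls of PCDH7, PCDH10, RAPGEF1, BCL9L, SNAI2 and TCF7L1 in culture and of BCL9L and FAT1 in tumors. It called 1246 genes in place of 1719 for CDH11 KD in culture. Deviations of same-numbered samples correlated at -0.0056 to 0.0571 in culture and -0.0902 to 0.118 in tumors, so no strong shift shared by number was seen. These correlations cannot show whether samples of the same number were handled together.

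Differences that passed no test changed sign around 0. For CDH11 KD these were CTNNB1 in culture (-0.024 with upper quartile normalization and -0.011 with at least 10 counts) and in tumors (-0.00357 with upper quartile normalization and -0.019 without the filter). In tumors CDH2 took -0.015, -0.030, -0.024, -0.027 and -0.23 (upper quartile, no filter, replicate block, 3 groups, mouse ratio), and CTNND1 -0.016, -0.026, -0.038, -0.00039 and -0.064 under the same settings and -0.00332 with DESeq2. With the mouse ratio CTNNAL1 was -0.016 for sh#2, and between hairpins JUP was -0.26 (-0.040 with DESeq2) and CTNNA1 0.0022 with upper quartile normalization. Without single libraries in culture, CTNNB1 ran from -0.026 to 0.047 and CTNNAL1 from -0.14 to 0.021 (CDH11 KD), CTNNA1 from -0.0086 to 0.11 and CTNNAL1 from -0.13 to 0.029 (sh#1), CTNNAL1 from -0.15 to 0.013 (sh#2), and CTNNAL1 from -0.022 to 0.065, CTNND1 from -0.047 to 0.10 and CDH4 from -0.20 to 0.063 (between hairpins). In tumors CTNNB1 ran from -0.031 to 0.056, CTNNAL1 from -0.080 to 0.046, CDH2 from -0.24 to 0.55 and CTNND1 from -0.078 to 0.069 (CDH11 KD), CTNNB1 from -0.075 to 0.016, CDH2 from -0.80 to 0.22 and CTNND1 from -0.32 to 0.022 (sh#1), CTNNAL1 from -0.022 to 0.14, JUP from -0.40 to 0.70 and CTNND1 from -0.036 to 0.19 (sh#2), and CTNNA1 from -0.068 to 0.030 and JUP from -0.29 to 0.81 (between hairpins).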
